A study of Mus musculus with 9 samples.

Results

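The 9 genes described here encode RNA-binding proteins and components of RNA granules that are known for roles in the lens or in the handling of mRNA and microRNA: *Tdrd7*, *Caprin2*, *Celf1*, *Rbm24*, *Stau1*, *Stau2*, *Elavl1*, *Ddx6* and *Dgcr8*. They were taken by symbol from the table of normalized expression values, where all 9 were found among 15820 entries with a symbol. RNA was sequenced from mouse lenses at embryonic stage E16.5 in 9 libraries, each from 8 pooled lenses. The 3 control libraries came from *Mafg*+/-:*Mafk*+/- embryos, the 3 compound KO libraries from *Mafg*-/-:*Mafk*+/- embryos and the 3 double KO libraries from *Mafg*-/-:*Mafk*-/- embryos. The alleles are germline knockouts, so both small Maf transcription factors were altered in every tissue of the embryo. The controls are heterozygous for both alleles and are not wild type, and at least 1 knockout allele of each gene is shared by all 9 libraries. The comparisons ask whether loss of *Mafg*, alone or with *Mafk*, changed the mRNA of these genes.

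After transcription, an mRNA is bound by proteins that set where it is spliced, how long it lasts, where it is carried and how often it is translated. Granules such as processing bodies and stress granules are assemblies of such proteins with their RNAs, in which mRNA can be stored, silenced or decayed. The lens depends on this layer because its fiber cells lose their nuclei and live on the mRNA and protein they already hold. Deficiency of *Tdrd7*, *Caprin2*, *Celf1* or *Rbm24* is known to cause eye or lens defects in animals. Small Maf proteins bind DNA as dimers, with each other or with CNC and Bach family partners, at Maf recognition elements.

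The genotypes were visible in the targeted genes. *Mafg* was between 112.9 and 134.5 normalized CPM (read counts relative to the library total, scaled by the authors for library composition) in the control libraries and between 10.1 and 26.2 in the 6 *Mafg*-/- libraries. *Mafk* was 5.2 to 6.3 in control and 4.3 to 5.3 in compound KO libraries, and at most 0.6 in those of the double KO. The tissue label was checked with 16 lens marker genes of the table, among them *Mip*, *Cryba1* and *Foxe3*. Compound KO replicate 1 stood apart most from the other libraries. Its summed lens marker level was 41.5% of the mean of compound KO replicates 2 and 3, and its summed levels of neural retina, periocular mesenchyme, skeletal muscle and retinal pigment epithelium markers were 542%, 781%, 667% and 1470% of that mean. Other libraries were raised in some of these lists to a lesser degree. The neural retina sum was 396.2 in compound KO replicate 2, against 44.3 to 138.7 in control. The periocular mesenchyme sum was 509.2 in double KO replicate 1, against 282.2 to 315.6 in control. Compound KO against control is also given without compound KO replicate 1 for *Dgcr8*, *Caprin2*, *Celf1*, *Rbm24* and the median of the members. The values of the listed pathway genes include that library. Read depth is unknown, and p-values weigh group differences against the spread between libraries, which the study calls biological replicates. In pooled lenses, fewer cells of a type and less RNA per cell cannot be told apart.

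*Dgcr8* was the only member called in a comparison of genotypes, and the sequences its RNA carries are shown first for that reason. The call was lost when any library was left out, as given below. DGCR8 is the RNA-binding partner of the nuclease Drosha in the Microprocessor, the complex that cuts primary microRNA transcripts. The Microprocessor is also known to cut a hairpin in the *Dgcr8* mRNA itself. By GENCODE release M39, *Dgcr8* lies on the minus strand of chromosome 16 at chr16:18069575-18107140 (GRCm39), and its canonical transcript has 14 exons. One annotated hairpin of 79 bases, *Mir1306*, lies at chr16:18102103-18102181 (GRCm39), inside the coding sequence of exon 2, and another of 88 bases, *Mir3618*, lies at chr16:18102414-18102501 on the same strand. The mature microRNAs of *Mir1306* are given below from RefSeq on GRCm38.p6, at chr16:18284288-18284310 for the 5p arm and chr16:18284248-18284268 for the 3p arm, both on the minus strand, 5′ to 3′, with the seed (bases 2 to 8) in capitals.
mmu-miR-1306-5p: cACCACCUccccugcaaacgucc
mmu-miR-1306-3p: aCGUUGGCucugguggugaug
The seeds of the 2 arms differ, and the sequence of *Mir3618* is not shown. Small RNA was removed from these samples before sequencing, so the levels of the mature microRNAs were not measured.

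The promoter of *Dgcr8* is shown because the genotypes differ in DNA-binding factors. RefSeq promoter windows, from 250 bases before to 50 bases after an annotated start on GRCm38.p6, were given for 7 of the 9 members in 10 windows. Both strands were searched for TGCTGA, part of a Maf recognition element, and for TGACNNNGC, the core of the element of CNC and small Maf pairs. The motifs overlap in some elements, and they occurred in 19.5% and 12.4% of all 32851 promoter windows. Among the members, 1 held TGCTGA, *Tdrd7*, and 0 held TGACNNNGC. The 250 bases before the *Dgcr8* start, at chr16:18289169-18289418 on the minus strand, held neither. Those before the second of the 3 annotated *Tdrd7* starts, at chr4:45972047-45972296 on the plus strand, held TGCTGA at position -214 from the start, in capitals.
Dgcr8, bases before the start: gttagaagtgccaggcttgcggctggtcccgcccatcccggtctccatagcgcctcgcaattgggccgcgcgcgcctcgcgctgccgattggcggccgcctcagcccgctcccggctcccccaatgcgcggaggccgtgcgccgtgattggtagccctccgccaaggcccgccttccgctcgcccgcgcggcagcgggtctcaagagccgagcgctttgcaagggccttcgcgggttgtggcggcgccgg
Tdrd7, bases before the second start: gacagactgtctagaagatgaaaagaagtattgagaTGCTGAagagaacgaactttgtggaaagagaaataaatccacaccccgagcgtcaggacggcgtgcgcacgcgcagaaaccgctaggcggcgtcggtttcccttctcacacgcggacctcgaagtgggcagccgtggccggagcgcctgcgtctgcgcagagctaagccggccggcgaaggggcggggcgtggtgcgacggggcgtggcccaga
A match here is a string of letters and was not read as a binding site, and the absence of a match covers these windows only.

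Levels between genes were compared per kilobase of the canonical transcript, in normalized CPM per kb. In control lenses the order was *Tdrd7* at 223 ± 132 (SD, n = 3), *Celf1* at 67.2 ± 2.4, *Caprin2* at 41.0 ± 2.14, *Rbm24* at 30.8 ± 2.35, *Ddx6* at 10.2 ± 5.15, *Elavl1* at 9.93 ± 0.118, *Stau1* at 4.36 ± 0.788, *Stau2* at 3.41 ± 0.17 and *Dgcr8* at 2.84 ± 0.116. By the entries with their symbols, the 4 genes whose loss is linked to lens defects thus held the highest places. Among neighbours, *Ddx6* and *Elavl1* overlapped, and the other neighbours did not overlap over the 3 control libraries. *Dgcr8* was the lowest of the 9 in control lenses, at 2.74 to 2.96 per kb, and was at 4.36 to 4.95 in compound KO and at 4.45 to 5.27 in double KO lenses. In both knockout groups it lay above *Stau2* and overlapped *Stau1*. The lengths are those of the annotation, and the transcripts used in these lenses were not determined. Entries without a symbol held 25.0% to 35.5% of the summed values of a library. Whether they hold reads of these genes was not tested, so the order is that of the entries with a symbol.

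**Figure D1:**
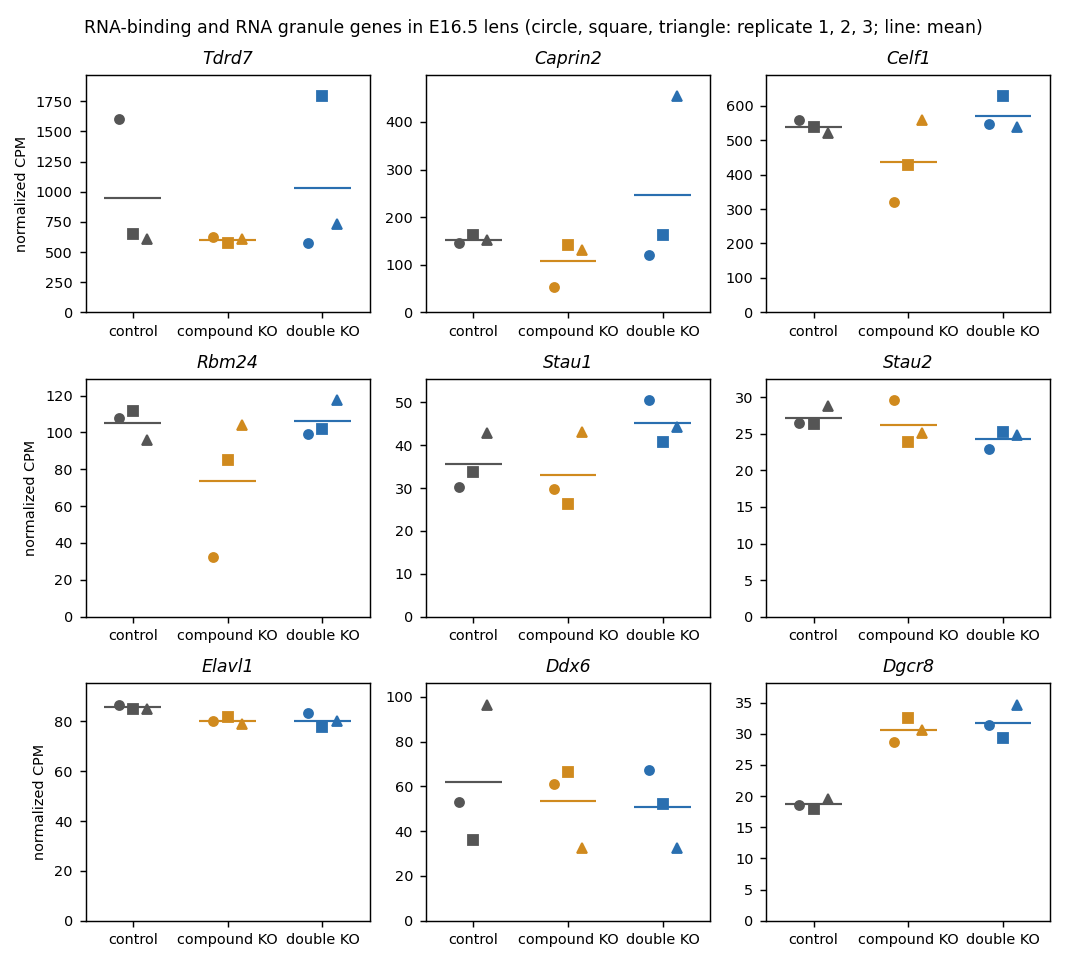
Normalized CPM (y axis) of each of the 9 genes in every library, by genotype (x axis), with symbols for replicates 1 to 3 and a line at the mean of each group. *Dgcr8* is at 18.0 to 19.5 in control and at 28.7 to 34.7 in the knockout libraries, while *Tdrd7* has 2 high libraries, and *Caprin2* has 1 high library at 454.2 and 1 low library at 54.1.

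In double KO against control lenses, *Dgcr8* was called elevated and the other 8 members were not called. *Dgcr8* was 18.5, 18.0 and 19.5 normalized CPM in the control libraries. It was 28.7, 32.6 and 30.6 in the compound KO libraries. In the double KO libraries it was 31.4, 29.3 and 34.7. All 6 *Mafg*-/- libraries lay above all 3 controls, and the ranges of the compound and double KO libraries overlapped. The fold change on the log2(value + 1) scale was 0.74 with an SE of 0.082 (95% interval 0.53 to 0.94, 1.67-fold) in double KO against control, with an adjusted p of 0.0412 by limma. Against the same controls the compound KO gave 0.68 with an SE of 0.091 (95% interval 0.46 to 0.91, unadjusted p = 0.000357 by limma), and the adjusted p of 0.233 missed the threshold. Double KO and compound KO differed by 0.05 (95% interval -0.20 to 0.30, adjusted p = 0.837 by limma).

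The call of *Dgcr8* in double KO lenses was lost when any 1 of the 6 libraries was left out, with log2 fold changes from 0.67 to 0.79 and adjusted p from 0.0751 to 0.147 by limma. An exact permutation test of 3 libraries against 3 has 10 distinct splits and cannot give a two-sided p below 0.1, which *Dgcr8* reaches in both comparisons with control. Without compound KO replicate 1, the compound KO value was 0.73 (adjusted p = 0.0983 by limma). Erythroid markers were higher in double KO lenses too. Of 11, 9 were tested and were higher, 8 of them without overlap (15.8% of all genes) and 0 called. In compound KO against control 7 were tested and were higher, 0 of them without overlap (23.9% of all genes). The summed erythroid level was 1171.7 to 1640.9 in control, 1426.9 to 2841.2 in compound KO and 2340.9 to 3882.9 in double KO libraries (*Epb42* and *Ahsp* were not in the table). In compound KO replicate 1, which stood apart in its cell type markers, the erythroid sum of 1426.9 was within the control range and *Dgcr8* was at 28.7. Both values were the lowest of the compound KO group. Of 19 skeletal muscle markers, 13 were tested and 12 of these were higher in double KO lenses, all 12 without overlap, with 1 of them called and a median log2 fold change of 1.58 over the 13. *Actn2*, the most abundant of them in control lenses, was lower, at 81.5 to 119.2 in control and 37.5 to 50.4 in double KO libraries, and the summed level with it overlapped. Without *Actn2* the other 14 muscle markers of the table summed to 4.6 to 8.1 in control, 26.2 to 436.0 in compound KO and 34.9 to 111.2 in double KO libraries. The part of these cell types in the *Dgcr8* result was not tested.

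Annotated protein-coding genes overlap *Dgcr8* on both strands. *Trmt2a*, a tRNA methyltransferase gene on the opposite strand, shares 3062 bases and was 14.8 to 18.3 in control, 16.0 to 17.8 in compound KO and 15.3 to 20.5 in double KO libraries. Its control group overlapped both knockout groups, and its part in the *Dgcr8* values was not tested. *Gm49776* lies on the same strand, shares 6611 bases and had no entry in the table used here. The libraries are strand-specific, but the strand setting of the counting is not given in the sources used here, so reads that fall in the shared bases are uncertain.

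The table also holds 6193 entries without a symbol. The one with the most negative correlation to *Dgcr8*, called its opposite entry here, was looked for after the data were seen, among the 1588 such entries whose SD was 0.5 to 2 times that of *Dgcr8*. It was 16.9, 17.1 and 18.5 in the control libraries and 5.2 to 9.4 in the 6 knockout libraries, and the correlation over the 9 libraries was -0.965. The sum of both entries was between 35.1 and 40.8 in all 9 libraries, with a CV of 4.9% against 24.1% for *Dgcr8* alone. With the sum in place of *Dgcr8* the log2 fold change was 0.06 in double KO (adjusted p = 0.826 by limma) and 0.04 in compound KO against control (adjusted p = 0.785 by limma). The entry was chosen for running opposite, so the sum had to vary less. Which gene it belongs to is not known here, and whether it holds *Dgcr8* reads was not tested.

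**Figure D2:**
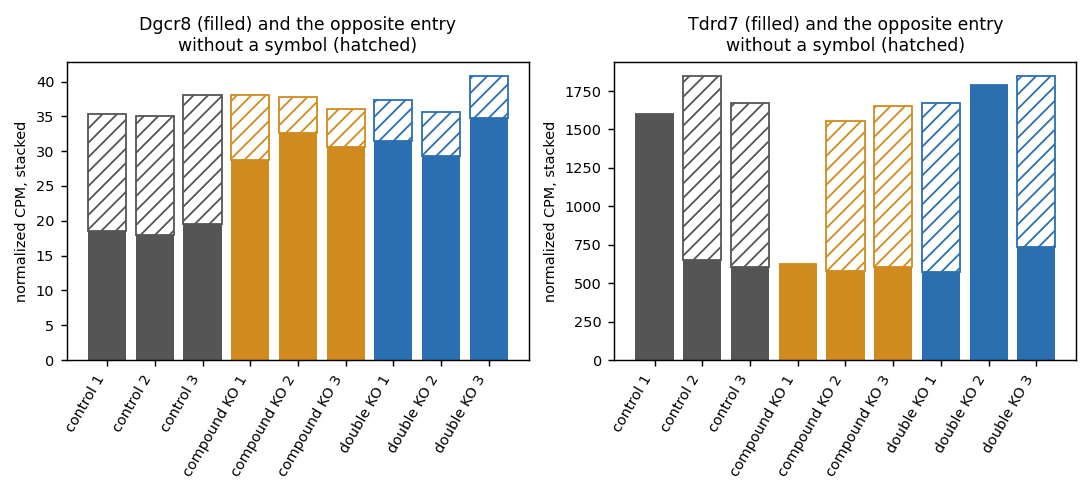
Stacked normalized CPM (y axis) in each library (x axis) of *Dgcr8* or *Tdrd7* (filled) and of its opposite entry, which carries no symbol (hatched), coloured by genotype. The *Dgcr8* stack is between 35.1 and 40.8 in every library, and the *Tdrd7* entry is at 0.0 to 0.2 in 3 libraries.

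Across the 9 members, 1 was called in double KO against control, beside 0.361% of the 14122 genes tested, and 1 was at an unadjusted p of at most 0.05, beside 9.97% of them. In compound KO against control 0 of 9 were called by limma (0% of 14348 tested), with 1, *Dgcr8*, at an unadjusted p of at most 0.05 (9.3% of all genes). In double KO against compound KO 0 of 9 were called (0.0139% of 14402 tested), with 0 at an unadjusted p of at most 0.05 (4.87% of all genes). The groups did not overlap for 3 of 9 members in double KO against control, where 15.8% of genes did so, namely *Dgcr8*, which was higher, and *Stau2* and *Elavl1*, which were lower. They did not overlap for 3 of 9 in compound KO against control (23.9% of genes), namely *Dgcr8*, which was higher, and *Caprin2* and *Elavl1*, which were lower, and for 0 of 9 in double KO against compound KO (15.6% of genes). The comparisons share libraries, 2 of them the controls, so they are not separate evidence. The median log2 fold change of the members was 0.08 in double KO against control, beside 0.01 for all genes tested. It was -0.16 in compound KO against control, beside 0.02 for all genes, and 0.42 in double KO against compound KO, beside -0.01 for all genes. Without compound KO replicate 1 the last 2 medians were -0.15 and 0.17.

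**Figure D3:**
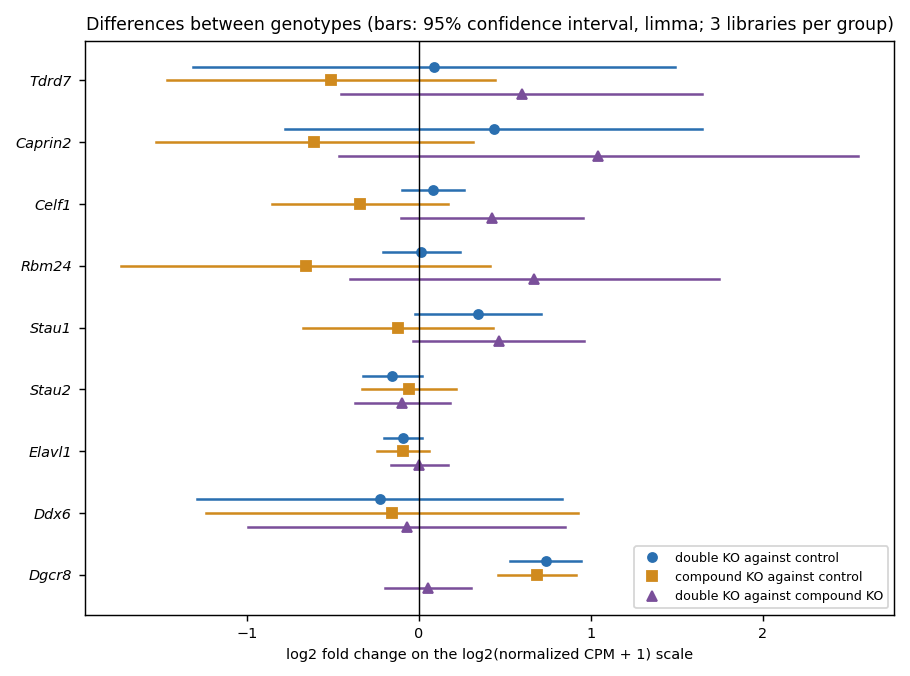
Log2 fold change on the log2(normalized CPM + 1) scale (x axis) of the 9 genes (y axis) in the 3 comparisons, with 95% confidence intervals from limma and 3 libraries per group. Only the 2 *Dgcr8* intervals against control, 0.53 to 0.94 and 0.46 to 0.91, lie clear of 0. The intervals of *Tdrd7*, *Caprin2* and *Ddx6* are wide. So are those of *Rbm24* in compound KO against control (-1.73 to 0.42) and in double KO against compound KO (-0.40 to 1.74).

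Among the granule proteins with known lens roles, *Tdrd7* (chr4:45965328-46035307, plus strand, GRCm39) encodes a Tudor domain protein of RNA granules whose loss causes cataract. *Tdrd7* was 1598.9, 651.4 and 605.2 normalized CPM in control, 623.5, 577.1 and 605.1 in compound KO and 575.9, 1791.7 and 732.7 in double KO libraries. Control replicate 1 and double KO replicate 2 were high, and the other 7 libraries lay between 575.9 and 732.7. Double KO differed from control by 0.09 on the log2 scale (95% interval -1.31 to 1.49, adjusted p = 0.977 by limma), an interval that holds changes of more than 2-fold in both directions. The opposite entry of *Tdrd7*, chosen among 10 of like spread, was at 0.2 in control replicate 1 and at 0.0 in double KO replicate 2, and at 1063.9 to 1193.7 in the other controls. It was 0.0 in compound KO replicate 1 as well, and 979.4 to 1115.2 in the 4 remaining knockout libraries. The sums of *Tdrd7* and this entry were 1556.5 to 1847.9 in 8 libraries and 623.5 in compound KO replicate 1. The caution on an entry chosen for running opposite holds here as well. Among the other 7 members, adding the opposite entry lowered the CV over the 9 libraries from 21.5% to 4.5% for *Stau1*, from 26.5% to 7.5% for *Rbm24* and from 66.2% to 39.5% for *Caprin2*.

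*Caprin2* (chr6:148743985-148797767, minus strand) encodes an RNA-binding protein of the Caprin family that is linked to translation and Wnt signaling. It was 145.7, 161.5 and 151.7 in control, 54.1, 140.6 and 130.7 in compound KO and 120.0, 162.3 and 454.2 in double KO libraries. Double KO replicate 3 was the highest of all 9 libraries and compound KO replicate 1 the lowest, at 39.9% of the mean of the other compound KO libraries. The log2 fold change was 0.44 in double KO against control (95% interval -0.78 to 1.65, adjusted p = 0.828 by limma), and -0.13 without double KO replicate 3. In compound KO against control it was -0.61 (adjusted p = 0.495 by limma), and -0.17 without compound KO replicate 1 (adjusted p = 0.435 by limma). The double KO value against compound KO was 1.04 (95% interval -0.46 to 2.55, adjusted p = 0.665 by limma), and it was 0.61 without compound KO replicate 1 and 0.48 without double KO replicate 3.

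*Celf1* (chr2:90770584-90849842, plus strand) and *Rbm24* (chr13:46571589-46584575, plus strand) encode regulators of splicing, mRNA stability and translation in the lens. *Celf1* was 557.7, 537.6 and 519.3 in control, 320.0, 428.2 and 557.9 in compound KO and 545.9, 627.7 and 539.3 in double KO libraries. *Rbm24* was 107.8, 111.4 and 96.1 in control, 32.5, 85.2 and 103.9 in compound KO and 99.0, 102.1 and 117.4 in double KO libraries. Both were lowest in compound KO replicate 1, and for both the control and double KO ranges overlapped. Double KO differed from control by 0.08 for *Celf1* (95% interval -0.10 to 0.26, adjusted p = 0.772 by limma) and by 0.01 for *Rbm24* (95% interval -0.21 to 0.24, adjusted p = 0.979 by limma). In compound KO against control the values were -0.34 for *Celf1* (adjusted p = 0.493 by limma) and -0.66 for *Rbm24* (adjusted p = 0.504 by limma). Without compound KO replicate 1 they were -0.14 and -0.16. In double KO against compound KO the values were 0.42 and 0.67, and 0.22 and 0.17 without that library.

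The low values of compound KO replicate 1 were unequal among the members. Relative to the mean of compound KO replicates 2 and 3, this library had 34.4% of *Rbm24*, 39.9% of *Caprin2* and 64.9% of *Celf1*, and between 86.3% and 124% of the other 6 genes. Over the 8099 genes with a mean of at least 10 in replicates 2 and 3, the median was 93.7%, and 4.9% of them were at or below 40%. The summed lens fiber cell markers of this library were at 39.1%, the lens epithelium list at 84.1% and the erythroid list at 58.2%. Single genes of the lens epithelium list ranged from 33.9% to 298%. Its surface ectoderm list, of which 2 of 7 genes were in the table, was at 5600%, and its endothelium and macrophage lists were at 203% and 151%. Neuronal relatives of the members were high in it: *Elavl3* was 72.2, against 22.5 and 6.3 in the other compound KO libraries, and *Celf3* was 48.1, against 12.3 and 2.5. The part of the library's cell makeup in these values was not tested.

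**Figure D4:**
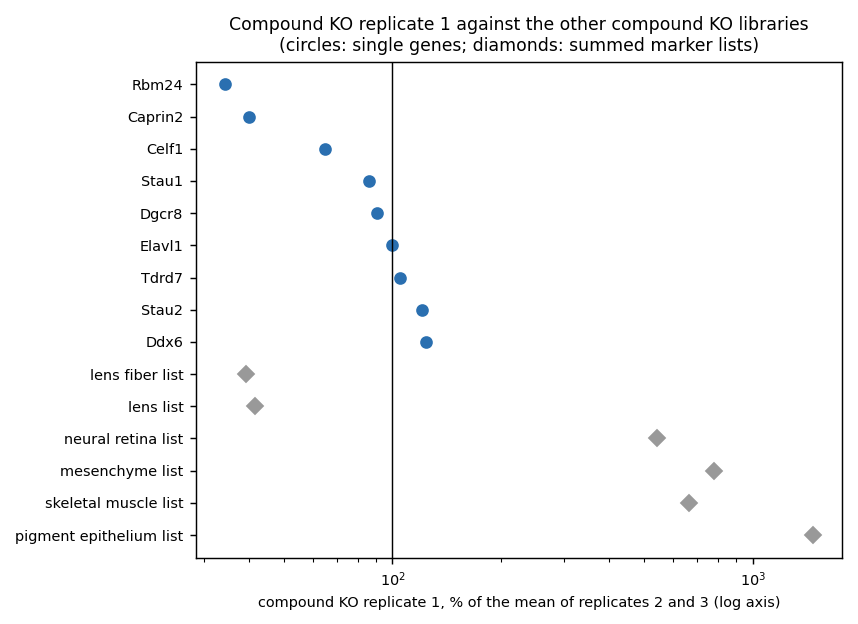
Level in compound KO replicate 1 as a percentage of the mean of compound KO replicates 2 and 3 (x axis, log scale), for the 9 genes (circles) and for summed cell type marker lists (diamonds). *Rbm24*, *Caprin2* and *Celf1* sit at 34.4% to 64.9%, beside the lens fiber list at 39.1%, and the 4 plotted lists of other cell types sit between 542% and 1470%.

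The Staufen genes *Stau1* (chr2:166784955-166838295, minus strand) and *Stau2* (chr1:16293941-16590357, minus strand) encode proteins that bind double-stranded RNA and act in mRNA transport and decay. *Stau1* was 30.3, 33.8 and 42.8 in control, 29.9, 26.2 and 43.1 in compound KO and 50.5, 40.8 and 44.2 in double KO libraries. Control replicate 3 and compound KO replicate 3 were above the lowest double KO library and below the other two, so the groups overlapped. *Stau1* differed by 0.34 in double KO against control (95% interval -0.02 to 0.71, adjusted p = 0.535 by limma) and by 0.46 in double KO against compound KO (95% interval -0.03 to 0.96, adjusted p = 0.665 by limma). *Stau2* was 26.5, 26.4 and 28.8 in control, 29.6, 23.9 and 25.1 in compound KO and 23.0, 25.2 and 24.9 in double KO libraries. The 3 double KO values were below the 3 control values, with a difference of -0.15 (95% interval -0.33 to 0.02, adjusted p = 0.551 by limma). *Stau1* overlaps *Cse1l* on the opposite strand by 7637 bases, and *Cse1l* was between 88.3 and 102.7 in all libraries.

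*Elavl1* (chr8:4332576-4375489, minus strand) encodes HuR, which binds AU-rich elements and stabilizes mRNA, and it was the steadiest of the 9. It was 86.8, 84.9 and 85.2 in control, 80.1, 81.7 and 78.9 in compound KO and 83.3, 77.8 and 80.0 in double KO libraries. All 6 knockout libraries were below all 3 controls, by small amounts. The difference was -0.09 in double KO (95% interval -0.20 to 0.02, adjusted p = 0.588 by limma) and -0.09 in compound KO (95% interval -0.24 to 0.06, adjusted p = 0.504 by limma) against control. The highest and lowest libraries differed 1.12-fold for *Elavl1*, and between 1.29-fold for *Stau2* and 8.4-fold for *Caprin2* among the other members.

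*Ddx6* (chr9:44514963-44552028, plus strand) encodes an RNA helicase that is needed to form processing bodies. It was 53.0, 36.0 and 96.6 in control, 61.2, 66.4 and 32.6 in compound KO and 67.4, 52.1 and 32.4 in double KO libraries. Each genotype held both high and low libraries, and the 3 groups overlapped. Double KO differed from control by -0.23 (95% interval -1.29 to 0.83, adjusted p = 0.911 by limma), so a 2-fold decrease is inside the interval.

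The pathways around the members were described with 6 lists of 113 genes that are no members: family relatives, processing body proteins, stress granule proteins, the microRNA pathway, proteins of RNA transport particles and lens genes known as targets of such regulators. By limma 0 of 107 tested genes were called in double KO against control, 0 of 107 in compound KO against control and 0 of 106 in double KO against compound KO. At an unadjusted p of at most 0.05 there were 14, 10 and 6 genes, which is 13.1%, 9.35% and 5.66% of those tested, beside 9.97%, 9.3% and 4.87% of all genes. Median log2 fold changes of the 6 lists ranged from -0.13 for family relatives to -0.01 for processing body proteins in double KO against control, beside 0.01 for all genes tested. In compound KO against control they ranged from -0.195 for stress granule proteins to 0.197 for family relatives, beside 0.0163. In double KO against compound KO they ranged from -0.658 for family relatives to 0.196 for stress granule proteins, beside -0.00525. The last 2 ranges include compound KO replicate 1.

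In the microRNA pathway list, the closest partner of DGCR8 was not called in any comparison. *Drosha*, the nuclease of the Microprocessor, was between 89.1 and 94.0 in control, 76.9 and 88.0 in compound KO and 82.4 and 91.1 in double KO libraries, with a double KO difference of -0.07 (adjusted p = 0.751 by limma). The compound KO libraries all lay below the controls for *Drosha*, in a comparison where 23.9% of all genes did not overlap. *Xpo5*, which exports precursor microRNA from the nucleus, was between 55.5 and 62.4 in all 9 libraries. *Ddx17*, a helicase that works with the Microprocessor, was 2.0, 1.3 and 38.3 in control, 176.5, 1.1 and 85.9 in compound KO and 104.4, 51.0 and 92.7 in double KO libraries. It was called in double KO against control without control replicate 3 (log2 fold change 4.93, adjusted p = 0.0379 by limma), and the value with all libraries was 3.63 (adjusted p = 0.379 by limma). These 3 genes were named for their ties to DGCR8, or for that call, after their values were seen.

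The listed genes with the smallest unadjusted p and no overlap were as follows. *Igf2bp2*, an mRNA-binding protein gene of transport particles, was 85.9, 94.6 and 82.3 in control, 51.8, 61.7 and 66.6 in compound KO and 63.2, 52.8 and 61.2 in double KO libraries. All 6 *Mafg*-/- libraries were below the controls, with differences of -0.56 in double KO (adjusted p = 0.127 by limma) and -0.54 in compound KO (adjusted p = 0.481 by limma). *Zfp36*, whose protein tristetraprolin binds AU-rich elements and promotes mRNA decay, was between 4.7 and 6.7 in control and between 8.8 and 12.8 in double KO libraries (0.87, adjusted p = 0.242 by limma). *Purb*, which encodes a nucleic acid-binding protein of transport particles, was between 137.3 and 143.4 in control and between 123.3 and 128.4 in double KO libraries (-0.16, adjusted p = 0.293 by limma).

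In compound KO against control the others named by this rule were *Pax6* and *Tdrkh*. *Pax6*, a master regulator of eye development, was 121.1, 100.2 and 88.0 in control, 162.7, 149.0 and 139.8 in compound KO and 132.4, 108.2 and 115.7 in double KO libraries. It differed by 0.55 in compound KO against control (adjusted p = 0.481 by limma) and by -0.34 in double KO against compound KO (adjusted p = 0.665 by limma). *Tdrkh*, a Tudor domain relative of *Tdrd7*, was between 72.8 and 79.3 in control and between 46.9 and 61.7 in compound KO libraries (-0.43, adjusted p = 0.481 by limma). The compound KO value in replicate 1 was 113% of the mean of the other compound KO libraries for *Pax6* and 77.5% for *Tdrkh*. The part of neural retina cells in the *Pax6* values was not tested.

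In double KO against compound KO the rule named *Qk* and *Msi2* beside *Pax6*, both genes of RNA-binding proteins. *Qk* was 83.6, 20.7 and 20.1 in control, 16.7, 12.5 and 18.0 in compound KO and 96.7, 48.3 and 70.6 in double KO libraries (2.08, unadjusted p = 0.000361, adjusted p = 0.306 by limma). *Msi2* was 72.6, 9.6 and 85.1 in control, 97.2, 72.4 and 100.3 in compound KO and 32.2, 12.0 and 5.5 in double KO libraries (-2.68, adjusted p = 0.665 by limma). For both genes the controls alone spread over most of the range of the other groups.

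The genes whose pattern over the 9 libraries was most like each member were found among 12087 genes, by Pearson's correlation on the log2 scale and as a description only. They were *Klf9* for *Dgcr8* (0.975), *Sox1* for *Rbm24* (0.996), *Gm17259* for *Celf1* (0.986), *Ube2m* for *Caprin2* (0.946), *Tmco3* for *Tdrd7* (0.940), *Homez* for *Stau1* (0.888), *Vdac3* for *Stau2* (0.952), *Nudt18* for *Elavl1* (0.928) and *Gm13410* for *Ddx6* (0.924). *Klf9*, a Krüppel-like transcription factor gene, was 4.1, 5.1 and 4.7 in control and between 11.7 and 24.4 in the 6 knockout libraries. *Sox1*, a transcription factor gene of lens fiber cells, was 77.0 in compound KO replicate 1 and between 209.0 and 281.1 in the other libraries. *Tmco3* was 30.5 in control replicate 1 and 28.7 in double KO replicate 2, the libraries where *Tdrd7* was high, and between 14.6 and 19.6 in the others. Among the 36 pairs of members, 1 had a correlation of at least 0.8, *Celf1* with *Rbm24* at 0.91, and it was 0.62 over the 8 libraries without compound KO replicate 1.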

How the data were processed

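The signal values were made by the authors from strand-specific paired-end reads: trimming (Trimmomatic), alignment to mm39 (HISAT2), counts (StringTie; Cufflinks is also listed in the submitters' notes), removal of low entries and scaling in edgeR. Versions are not given in the sources used here. The unit, CPM scaled by one factor per library and rounded to 1 decimal, was read from the column totals, 728036 to 1131184 with a geometric mean of 1000012. These are not depths. Depth is unknown, so precision rests on 3 libraries per genotype.

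Genes were tested with limma 3.58.1 in R 4.3.3 on log2(value + 1) with an intensity trend, for each pair of genotypes, on entries with a symbol that reached 1 in 2 or more of the 6 libraries. The test was two-sided, and Benjamini-Hochberg adjustment covered every gene tested in that comparison. A gene was called at a 1.5-fold change if its adjusted p was 0.05 or less. Members and gene lists were chosen with earlier results of these data known. Named genes are the members, *Mafg* and *Mafk*, listed pathway genes that were called or else, per comparison, the 3 with the smallest unadjusted p of at most 0.05 and no overlap, and the gene most like each member. Other genes were named after their values were seen. Positions come from GENCODE M39 (GRCm39, the build of the files) and sequences from RefSeq (GRCm38.p6). Alternatives were other scalings, filters, a pseudocount of 0.1, a joint fit of the 9 libraries, a block for the replicate number, summed duplicate symbols, no fold threshold and each library left out. Adding the opposite entry was chosen after seeing the data. Figures used Python 3.11.15 with matplotlib 3.10.9.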

Additional observations from a re-analysis of the deposited data

How the results depend on the processing

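The count of 1 member called in double KO against control was 0 with the replicate block (*Dgcr8* adjusted p = 0.183 by limma) and 0 when any library was left out. It was also 0 with the opposite entry added. That entry was chosen for running opposite in these same libraries, so this loss is no test of the call. Libraries with the same replicate number correlated by -0.106 to 0.216 after removal of group means, so the numbers were not used as pairs. The block changed no other call among the members and listed pathway genes. *Dgcr8* kept its call with the scalings, filters, pseudocount, joint fit, summed symbols and no fold threshold (adjusted p 0.039 to 0.0452 by limma). The listed pathway genes called in this comparison were 0 to 1 with a library left out. All genes called there numbered 51, and 10 with the block, 21 in the joint fit and 22 to 47 with a library left out.

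Scaling to the same total shifted the median of all genes by 0.228 in compound KO against control and by -0.167 in double KO against compound KO. It reversed *Stau1* (0.13), *Stau2* (0.19), *Elavl1* (0.16) and *Ddx6* (0.10) in the former, all still under the all-gene median of 0.244, and *Elavl1* (-0.18) and *Dgcr8* (-0.13) in the latter, where that median was -0.172. Adding the opposite entry reversed *Stau2* (0.0036) in double KO against control, *Rbm24* (0.060) in compound KO against control, and *Rbm24* (-0.027) and *Stau2* (0.04) in double KO against compound KO. Each such entry was chosen for running opposite to its member, so these reversals are no test of the values. With a library left out, values that reversed ranged, in double KO against control, from -0.40 to 0.54 for *Tdrd7*, -0.13 to 0.83 for *Caprin2*, -0.061 to 0.061 for *Rbm24* and -0.55 to 0.15 for *Ddx6*. In compound KO against control they ranged from -0.32 to 0.025 for *Stau1*, -0.15 to 0.0025 for *Stau2* and -0.48 to 0.22 for *Ddx6*. In double KO against compound KO they ranged from -0.024 to 0.025 for *Elavl1*, -0.39 to 0.21 for *Ddx6* and -0.012 to 0.11 for *Dgcr8*. None of these reversed values was called, and the causes were not tested. Unknown depth limits what can be said of low genes such as *Mafk*.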
